A study of Drosophila melanogaster with 90 samples.

Results

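The chorion protein genes Cp7Fa, Cp7Fb, Cp7Fc, Cp15, Cp16, Cp18, Cp19, Cp36 and Cp38 were followed by name through the count table, in which all 9 had a row among 14514 genes. All 9 also passed the filter on low counts, which kept 12045 genes. The chorion is the outer layer of the fly eggshell. Follicle cells, the somatic epithelium around each oocyte, secrete it in the last hours of egg formation, and before they do so they copy the chorion gene clusters many times over by repeated firing of local replication origins. Each chorion gene is known to be transcribed in its own short window: Cp36 and Cp38, major structural proteins, come on early, Cp16 and Cp19 in the middle, and Cp15 and Cp18 in the latest egg chambers. Less is known of Cp7Fa, Cp7Fb and Cp7Fc, which were named for their site in the X-linked cluster. RNA of a whole female pools all the egg chambers it holds, and mating is known to raise ovulation and egg production in flies.

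The samples were whole Drosophila melanogaster females of inbred lines from 5 places, namely Zimbabwe 184, Tasmania 01, Netherlands 01, Ithaca 16 and Beijing 04. The submitters describe the Zimbabwe line, though collected in Africa, as a recent migrant. Virgins of each line were mated once to a virgin male of each of the same lines, which gives 25 crosses, and were frozen 5 to 6 h after mating began. Virgins of the same age, kept apart from males for 3 to 5 days like all the flies, were frozen beside them. A library was made from 5 to 10 pooled females. Each group was planned with 3 replicates raised in separate bottles, and 89 libraries were analysed, 15 virgin and 74 mated, with 2 for the cross of Ithaca females to Zimbabwe males and 3 for every other group. A cross is named below with the female line before the male line. Each line is a single inbred stock, so a difference between lines is a difference between these stocks, and pooled females hide the variation between flies.

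Reads assigned to genes numbered 4407704 to 38799730 per library, with a median of 14081355. Levels are given as CPM, read counts scaled to a common library total after correction for library composition. Some libraries went against their labels or held other RNA. The summed level of 26 testis and sperm genes, 24 of them tested, was above 10 CPM in 7 libraries (11.7 to 1640 CPM, against 3.99 to 9.59 CPM in the others). Genes silent in a library's own line pointed to more than 10% of RNA from another line in 5 libraries. The highest value, 51.7%, was in Netherlands x Ithaca replicate 2. That estimate rests on 3 to 6 genes per line. The comparisons were repeated without the 10 libraries that passed either limit and could be spared, and those values are given beside the results that moved. The chorion genes are themselves markers of late follicle cells, and all 9 were detected in all libraries, with the smallest count, 20 reads, for Cp7Fa in Netherlands x Tasmania replicate 2.

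The 5 X-linked genes lie in the order Cp7Fa, Cp7Fb, Cp7Fc, Cp36, Cp38 and the 4 on chromosome 3L in the order Cp18, Cp15, Cp19, Cp16, all on the plus strand, in the annotation used for names, which is of a later build than the reads were mapped to. No tested gene lies wholly between members of either cluster. The span of CG33223 overlaps each of the 5 X-linked members, but no member shares exon bases with another annotated gene. Exon lengths run from 515 bases for Cp15 to 2093 bases for Cp7Fb.

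Compared per kilobase of exon, Cp15 was the most abundant chorion transcript, with a median over all 89 libraries of 2251 CPM per kilobase, and was 25th among 14321 genes with a length. Cp38 followed with a median of 1952 CPM per kilobase, Cp36 with 1270, Cp19 with 1029 and Cp18 with 660. Cp16 had a median of 377 CPM per kilobase, and the 3 genes Cp7Fc, Cp7Fb and Cp7Fa were the lowest at 157, 92.4 and 87.2. The order is of medians only: the ranges of all 9 genes over libraries overlapped. Together the chorion genes took 0.0269% of a library's counts in Beijing x Beijing replicate 2 and 3.49% in Zimbabwe x Ithaca replicate 1, with a median of 0.718%.

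Among the early genes, Cp38 had a lowest, median and highest level of 54.5, 2439 and 10012 CPM over the 89 libraries, and Cp36 of 37.9, 1417 and 6525 CPM. For both the lowest library was Beijing x Beijing replicate 2 and the highest Zimbabwe x Ithaca replicate 1. Cp7Fa ran over 2.67, 103 and 562 CPM (lowest, median and highest), Cp7Fb over 13.1, 193 and 970 CPM and Cp7Fc over 15.9, 178 and 825 CPM. Cp7Fb and Cp7Fc shared both their extremes, Netherlands virgin replicate 3 and Ithaca virgin replicate 3. On 3L, Cp19 ran over 12.9, 670 and 5440 CPM, Cp16 over 2.41, 197 and 1818 CPM, Cp18 over 3.6, 428 and 4606 CPM and Cp15 over 14.5, 1159 and 9613 CPM. The highest library was thus 52-fold above the lowest for Cp7Fc, the narrowest range, and 1280-fold for Cp18, the widest.

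That range was not between lines alone. Replicate libraries of the same group differed widely in chorion RNA, most of all in Cp18 and Cp16. Cp18 ranged from 3.6 CPM (27 reads) in Netherlands x Tasmania replicate 2 to 835 CPM in replicate 1 of the same cross. That is a 232-fold difference between pools of females of the same line. The highest library for Cp18 was at least 10-fold above the lowest in 16 of 30 groups. Cp16 did so in 15 groups, Cp7Fa and Cp19 in 12 each and Cp15 in 11. Cp36 and Cp38 did so in 5 groups each and Cp7Fb and Cp7Fc in 2 each.

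On the log2 scale the SD within groups was 2.32 for Cp18, 2.13 for Cp16, 1.89 for Cp15, 1.87 for Cp19 and 1.61 for Cp7Fa. It was 1.19 for Cp38, 1.09 for Cp36, 1.04 for Cp7Fc and 1.02 for Cp7Fb. The median over all 12045 tested genes was 0.33 and the 99th percentile 1.38. Only 2 tested genes had a larger SD than Cp18, and Cp16 was 6th, Cp15 17th and Cp19 20th of 12045. Even the steadiest member, Cp7Fb, stood at the 95.8th percentile of all tested genes and at the 99.3rd of the 2488 genes at least as abundant as the lowest chorion gene. The reads behind these values were few only at the bottom of the range: the 3.6 CPM of Cp18 rest on 27 reads, and the 2.41 CPM of Cp16 in Beijing x Ithaca replicate 1 on 33 reads.

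**Figure D1:**
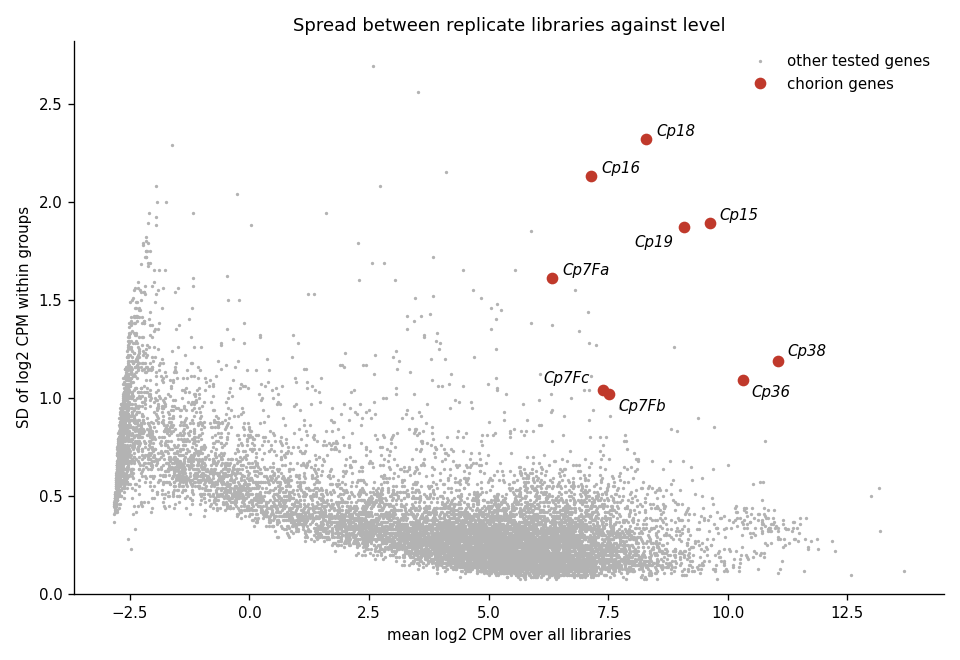
SD of log2 CPM within groups (vertical axis) against mean log2 CPM over the 89 libraries (horizontal axis), with a grey point for each tested gene and a named red point for each chorion gene. Cp18 at 2.32 and Cp16 at 2.13 are the highest chorion genes, and Cp7Fb and Cp7Fc, at 1.02 and 1.04, are the lowest, above the median of 0.33.

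The spread was shared, but not by all members alike. Deviations of log2 CPM from the group mean were correlated between members over the 89 libraries, and all 36 pairs had a positive Pearson's r, from 0.20 to 0.98. Each pair was tested by 100000 permutations of libraries within groups, and p-values were adjusted over the 36 pairs. The permutations took libraries as independent, with no allowance for libraries of the same line and replicate number. Cp36 and Cp38 rose and fell together (r = 0.98, Spearman's rho = 0.97), as did Cp16 and Cp19 (r = 0.98, rho = 0.97) and Cp7Fb and Cp7Fc (r = 0.96, rho = 0.94). For these 3 pairs p was 1e-05, the smallest value the permutations can give, and the adjusted p 2.40e-05. Without the 2 libraries farthest from the median r was 0.97, 0.98 and 0.95, and within single female lines it was never below 0.97, 0.96 and 0.93 respectively.

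Each of these 6 genes had the other member of its pair as its closest match among all 12044 other tested genes. Genes outside the family came near, with a highest r from 0.89 (Obp19c with Cp7Fc) to 0.95 (CG31926 with Cp19). Over 11894 pairs of neighbouring tested genes the median r was 0.10, the 95th percentile 0.85 and the 99th 0.95. Cp18 went with Cp16 (r = 0.93, rho = 0.92) and Cp19 (r = 0.87, rho = 0.86), each with the same smallest p. Cp7Fa, at the far end of the X cluster from Cp38, varied with Cp38 (r = 0.86, rho = 0.84) and Cp36 (r = 0.82, rho = 0.79). It varied much less with its neighbours Cp7Fb (r = 0.35, rho = 0.34, p = 0.0108, adjusted p = 0.0139) and Cp7Fc (r = 0.34, rho = 0.33, p = 0.0105, adjusted p = 0.0139). The tested gene closest to Cp7Fa was CG12716, outside the family (r = 0.96), and Cp38 was 6th.

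Cp15 stood partly by itself among the members, with r of 0.67 to Cp18, 0.58 to Cp16 and 0.56 to Cp19. Its closest tested gene was CG6508, outside the family (r = 0.94), and Cp18 was 12th. The weakest relations joined Cp7Fb and Cp7Fc to the genes on 3L, with r of 0.20 to 0.26. Of those 8 pairs, 2 had an adjusted p under 0.05 (Cp7Fb with Cp19, 0.0371, and with Cp16, 0.0484), and the other 6 lay between 0.0712 and 0.196. The median r was 0.66 for the 16 pairs on the same chromosome arm and 0.42 for the 20 pairs on different arms. Leaving out the 10 mixed libraries changed no r of these pairs by more than 0.04. The genes thus fell into sets that varied together, Cp36 with Cp38 and Cp7Fa, Cp7Fb with Cp7Fc, and Cp16 with Cp19 and Cp18, and on the X the sets did not follow the order of the genes.

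**Figure D2:**
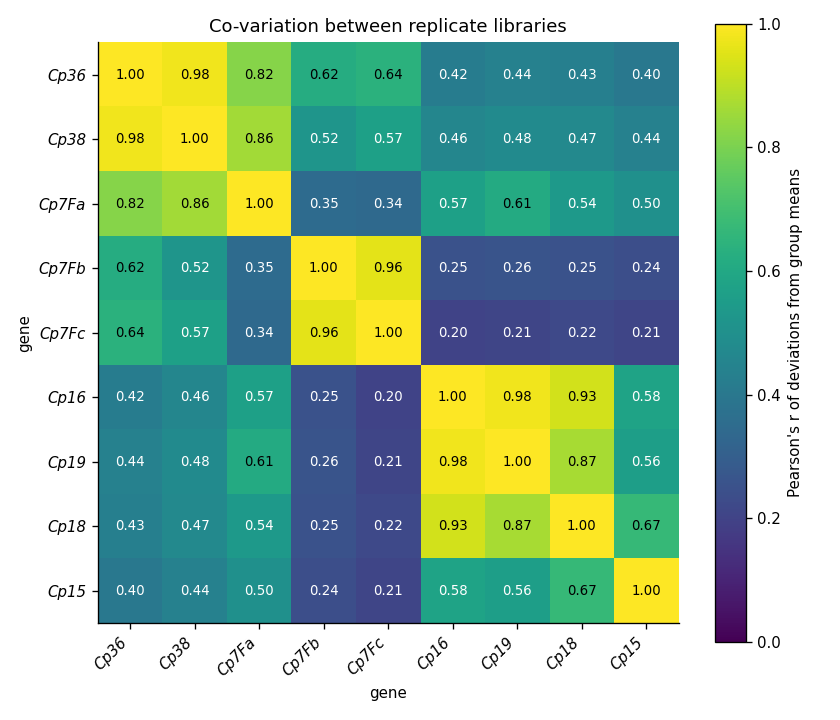
Pearson's r between the deviations of 2 chorion genes from their group means over 89 libraries, with genes on both axes and r as colour and as printed value. Blocks of high r join Cp36, Cp38 and Cp7Fa (0.82 to 0.98), Cp7Fb and Cp7Fc (0.96), and Cp16, Cp19 and Cp18 (0.87 to 0.98).

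A ratio drawn from 2 of the sets above restates this in CPM. It leaves out Cp15, also a late gene, so it is not a measure of timing. The sum of Cp16, Cp18 and Cp19 divided by the sum of Cp36 and Cp38 had a median of 0.406 over the 89 libraries, with 0.00804 in Tasmania x Netherlands replicate 2 and 4.21 in Zimbabwe x Tasmania replicate 3. In the first of these libraries Cp36 stood at 1435 CPM, near its median of 1417 CPM, while Cp18 stood at 6.66 CPM, and in replicate 1 of the same cross Cp36 stood at 1347 CPM with Cp18 at 1158 CPM. In Zimbabwe x Tasmania replicate 3 Cp36 stood at 270 CPM and Cp18 at 1436 CPM. Cp15, outside the ratio, stood at 613 CPM in Tasmania x Netherlands replicate 2 and at 3271 CPM in Zimbabwe x Tasmania replicate 3. Its median over all libraries was 1159 CPM. Libraries with like amounts of the early transcripts thus held very different amounts of Cp18. By contrast the ratio of Cp38 to Cp36 lay between 0.64 and 2.21 in all libraries, with a median of 1.68, although the highest library was 172-fold above the lowest for Cp36 and 184-fold for Cp38.

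**Figure D3:**
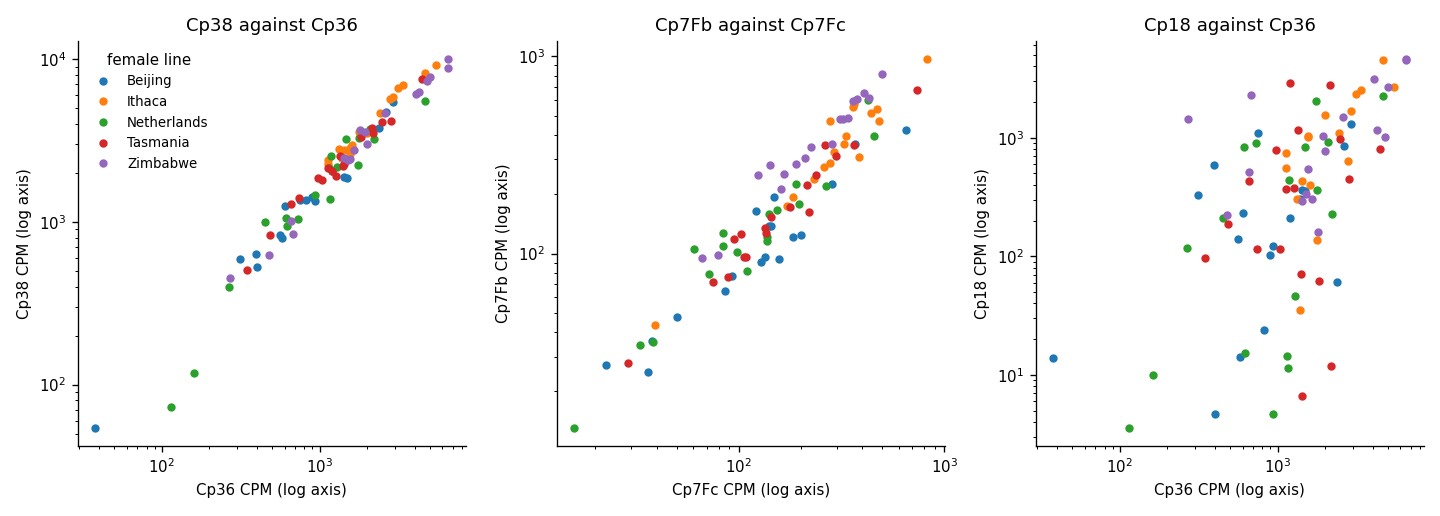
Levels of 2 chorion genes in each of the 89 libraries, in CPM on log axes, coloured by female line. Cp38 against Cp36 and Cp7Fb against Cp7Fc form narrow bands, while Cp18 against Cp36 is scattered, with 6.66 CPM of Cp18 in 1 library and 1158 CPM in another at Cp36 levels of 1435 and 1347 CPM.

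The tested genes outside the family whose deviations were most like the mean deviation of the 9 members over the 89 libraries were Femcoat (r = 0.93, rho = 0.94), CG13083 (r = 0.93, rho = 0.94), CG31926 (r = 0.91, rho = 0.91), CG13084 (r = 0.88, rho = 0.92) and CG16956 (r = 0.88, rho = 0.86). The next were CG32642 (r = 0.87), CG4066 (r = 0.85), CG31928 (r = 0.85), CG18088 (r = 0.82) and CG15571 (r = 0.82). They were chosen for their r, so none is given a p. Femcoat encodes an eggshell protein, and its level ran from 0.533 to 378 CPM with a median of 59.7 CPM. Femcoat and CG31926 were closest to the Cp16, Cp18 and Cp19 set (r = 0.94 and 0.95), whereas CG4066 and CG15571 were closest to Cp36, Cp38 and Cp7Fa (r = 0.86 and 0.89). With Cp7Fb and Cp7Fc their r was lower, at 0.28, 0.22, 0.35 and 0.33 in the same order. The mean was of unscaled log2 deviations, so members with a larger SD weighed more in it.

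Other eggshell genes did not all follow. The vitelline membrane genes Vm26Aa, Vm26Ab, Vm32E, Vm34Ca and Vml encode the inner eggshell layer, which is laid down before the chorion. Their within-group SDs were 0.84 to 0.99 on the log2 scale, also above 90% of tested genes, yet their r with the chorion mean lay between -0.08 and 0.14. yellow-g and yellow-g2, follicle cell genes needed for a firm eggshell, had r of 0.82 and 0.77 with the Cp36, Cp38 and Cp7Fa set. Their r was 0.61 and 0.67 with the Cp7Fb and Cp7Fc set, and 0.24 and 0.21 with the Cp16, Cp18 and Cp19 set. The mean of all 18 tested genes of that eggshell list had r = 0.40 with the chorion mean. The yolk protein genes and receptor gave r = 0.32, and the lists of replication and amplification factors, follicle cell regulators, female germline, testis and sperm, and seminal fluid genes gave r between -0.10 and -0.05. Library depth (r = -0.08), the slope of counts on gene length (r = -0.13) and the testis and sperm sum (r = -0.04) had an r nearer to 0 than the TMM factor, the correction for library composition (r = -0.24, and -0.26 without the 2 farthest libraries). The part of composition in the chorion levels was not tested. These are descriptions over libraries, and no p is attached to a mean over chosen members.

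Mating was compared first averaged over the 5 female lines. None of the 9 chorion genes was called between mated and virgin females in edgeR's quasi-likelihood test (0 of 9 at an adjusted p under 0.05, 0 of 9 at an unadjusted p under 0.05, and 0 of 9 with DESeq2), where 5.63% of all tested genes were called, 4.16% higher and 1.47% lower in mated females. In whole flies, fewer cells of a type and less RNA per cell cannot be told apart. The log2 change, mated minus virgin, was 0.39 ± 0.39 (SE) for Cp7Fa, 0.34 ± 0.51 for Cp16, 0.28 ± 0.28 for Cp36 and 0.24 ± 0.29 for Cp38. It was 0.19 ± 0.47 for Cp15, 0.19 ± 0.46 for Cp19, 0.15 ± 0.53 for Cp18, -0.02 ± 0.26 for Cp7Fb and -0.08 ± 0.26 for Cp7Fc, each with an adjusted p between 0.769 and 1. The 95% interval was -0.52 to 0.49 for Cp7Fb, and -0.89 to 1.19 for Cp18. The sign of the change turned for Cp7Fb, Cp7Fc, Cp15, Cp16, Cp18 and Cp19 when libraries were left out. Beside these changes the median change was 1.48 for the 24 testis and sperm genes and 0.97 for the 15 seminal fluid genes, with 0 called in either list. Lines were unlike in this. The 2 medians were 4.52 and 3.68 in Ithaca, 1.23 and 1.77 in Netherlands and 0.72 and 0.44 in Beijing. They were 0.35 and 0.25 in Zimbabwe and 0.15 and -0.66 in Tasmania.

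Within lines the direction was not the same. All 9 genes were lower in mated than in virgin Ithaca females, with log2 changes from -2.12 to -0.89 and a median of -1.05 (all tested genes, 0.05). All 9 were also lower in mated Tasmania females (-1.66 to -0.37, median -0.68, against -0.01 for all tested genes). All 9 were higher in mated Netherlands females (0.75 to 1.97, median 1.08, against 0.04) and in mated Zimbabwe females (0.61 to 2.57, median 1.43, against 0.00). Beijing females had 7 genes higher and 2 lower, with a median of 0.47 against 0.00. The members vary together, so a shared sign over 9 genes is not 9 observations, and each line has 3 virgin libraries.

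None of these 45 changes was called by edgeR's quasi-likelihood test or by DESeq2. The edgeR share of all tested genes called was 0.0249% in Beijing, 0.174% in Ithaca, 0.125% in Netherlands, 0.822% in Tasmania and 0.0830% in Zimbabwe. That of DESeq2 is not given. At an unadjusted p under 0.05 there were 3: Cp19 in Ithaca (-2.12 ± 0.89, adjusted p = 0.428 by edgeR) and Cp7Fb and Cp7Fc in Tasmania (-1.37 ± 0.52, adjusted p = 0.294, and -1.32 ± 0.53, adjusted p = 0.341). Tasmania virgin replicate 3 was a mixed library, with 25.8% of RNA estimated from another line. It held 127 CPM of Cp7Fb, against 675 and 356 CPM in Tasmania virgin replicates 1 and 2. The difference between lines in the mating change was tested directly and called for 0 of 9 members, with 0.0664% of all tested genes called and 0 members by DESeq2. Before adjustment 4 members, Cp7Fb, Cp7Fc, Cp36 and Cp18, had a p under 0.05, and their adjusted p was 1 by edgeR.

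**Figure D4:**
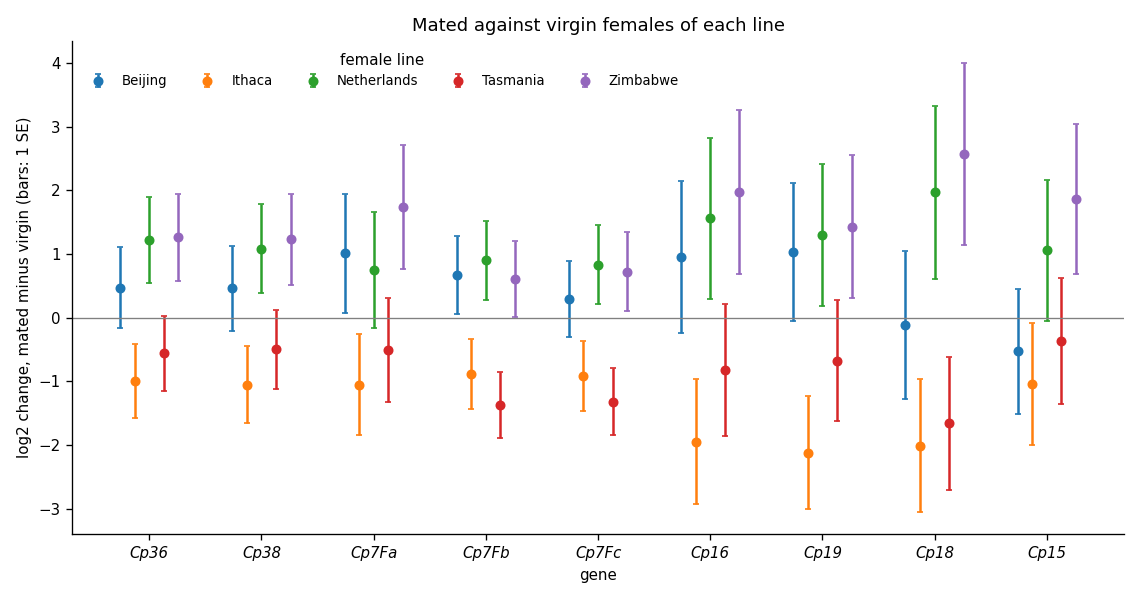
Log2 change in mated against virgin females of each line for the 9 chorion genes, as points with bars of 1 SE, coloured by female line. Ithaca and Tasmania lie below 0 and Netherlands and Zimbabwe above 0 for every gene, from -2.12 for Cp19 in Ithaca to 2.57 for Cp18 in Zimbabwe.

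Ithaca gave the clearest case by library. Cp19 was at 4342, 4193 and 5440 CPM in the 3 Ithaca virgin libraries, and at 270 CPM (lowest), 1049 CPM (median) and 3358 CPM (highest) in the 14 mated ones. Every virgin library was thus above every mated one for Cp19, which 0.697% of all tested genes showed in that direction, and Cp19 was the single member to do so. Cp18 was at 2542, 2321 and 4549 CPM in virgins and at 35.5, 693 and 2670 CPM (lowest, median and highest) in mated females, so that the groups overlapped. Cp38 was at 6895, 6614 and 8182 CPM in virgins and at 2253, 2918 and 9256 CPM (lowest, median and highest) in mated females, and 1 mated library, Ithaca x Netherlands replicate 2, lay above all 3 virgin ones. Beside these values the median log2 change of the 18 other eggshell genes in Ithaca was -0.92, with 0 called, that of the 4 yolk genes -0.29 and that of the 19 female germline genes -0.08. The medians of the 24 testis and sperm genes and the 15 seminal fluid genes were 4.52 and 3.68 in Ithaca, with 0 called. Of the 14 mated Ithaca libraries 4 had a testis and sperm sum of 20.9 to 1640 CPM and the others 5.01 to 9.58 CPM. Without libraries over that limit the change of Cp19 in Ithaca was -2.35, against -2.12 with them. In Zimbabwe, where the chorion median was 1.43, the 18 other eggshell genes had a median of 0.03.

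Virgins of different lines differed in chorion RNA. Taken over the 5 virgin groups, 5 of 9 members were called (Cp7Fb, adjusted p = 0.00347; Cp7Fc, 0.0152; Cp38, 0.0184; Cp19, 0.0234; Cp36, 0.0242, by edgeR's quasi-likelihood test), beside 27.5% of all tested genes. Cp7Fa (adjusted p = 0.0582), Cp18 (0.0752), Cp16 (0.0817) and Cp15 (0.198) were not called by edgeR. Ithaca virgins were the high group, with 2.01% to 3.17% of their counts from chorion genes, against 0.232% to 0.528% in Beijing, 0.158% to 0.355% in Netherlands, 0.345% to 0.671% in Zimbabwe and 0.545% to 1.66% in Tasmania.

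By library, Cp7Fb stood at 543, 359 and 970 CPM in Ithaca virgins and at 109, 116 and 13.1 CPM in Netherlands virgins. It stood at 121, 93.4 and 36.1 CPM in Beijing virgins, at 675, 356 and 127 CPM in Tasmania virgins and at 284, 252 and 281 CPM in Zimbabwe virgins. The Ithaca libraries were all above those of Beijing, Netherlands and Zimbabwe, and overlapped with Tasmania. For Cp19 the 3 Ithaca values above faced 245, 219 and 174 CPM in Beijing and 469, 30.6 and 213 CPM in Netherlands. Cp36 was at 3377, 3128 and 4624 CPM in Ithaca virgins, at 267, 933 and 451 CPM in Netherlands virgins and at 2826, 2137 and 1123 CPM in Tasmania virgins.

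Among 10 pairs of lines, 10 member differences were called in virgins. In Ithaca against Netherlands, 4 members were called higher in Ithaca (5.51% of all tested genes were called in that direction). Cp7Fb differed by 2.97 ± 0.80 on the log2 scale (adjusted p = 0.00857 by edgeR's quasi-likelihood test), Cp38 by 2.92 ± 0.90 (0.0243), Cp7Fc by 2.77 ± 0.81 (0.0162) and Cp36 by 2.75 ± 0.85 (0.0246). In Beijing against Ithaca, 4 members were called lower in Beijing (5.48% of all tested genes), with Cp19 at -4.45 ± 1.49 (0.0370), Cp7Fb at -2.90 ± 0.80 (0.00831), Cp38 at -2.62 ± 0.89 (0.0389) and Cp36 at -2.37 ± 0.83 (0.0494). In Netherlands against Tasmania, Cp7Fb and Cp7Fc were called lower in Netherlands (-2.28 ± 0.78 and -2.25 ± 0.79, with 7.68% of all tested genes called lower). No member was called in the other 7 pairs. The share of all tested genes called there was 9.17% between Beijing and Netherlands, 8.61% between Beijing and Tasmania and 8.90% between Beijing and Zimbabwe. It was 10.9% between Ithaca and Tasmania, 9.04% between Ithaca and Zimbabwe, 6.08% between Netherlands and Zimbabwe and 8.04% between Tasmania and Zimbabwe.

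All 9 members were apart without overlap, higher in Ithaca, when Ithaca virgins were set against Beijing (16.3% of all tested genes), Netherlands (12.5%) and Zimbabwe (16.4%), and 3 of 9 were against Tasmania (12.6%). Netherlands virgins lay wholly below Tasmania virgins for 4 members (12.5%) and below Zimbabwe virgins for 3 (9.02%). Beijing virgins lay below Tasmania for 2 (13.0%) and below Zimbabwe for 1 (12.6%), and Tasmania virgins lay above Zimbabwe for 1 (13.8%). As with mating, the members vary together, so 9 members are not 9 observations, and each virgin group had 3 libraries.

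The virgin calls rest on few libraries. Without Ithaca virgin replicate 3, which had the most chorion RNA of the virgins, 1 of 9 members (Cp7Fb) was called over the 5 lines and 1 difference between pairs of lines was called. Without all libraries numbered 1 these counts were 1 (Cp19) and 1, and without all numbered 3 they were 0 and 0. The 10 differences between pairs became 6 without Beijing virgin replicate 2 or 3 or Ithaca virgin replicate 1 or 2, and 5 without Netherlands virgin replicate 3 or all libraries numbered 2. Without the 10 mixed libraries 3 members (Cp7Fb, Cp7Fc and Cp19) were called, and Cp36 and Cp38 were no longer called between Ithaca and Netherlands (adjusted p = 0.0907 and 0.0952 by edgeR), with differences of 2.43 and 2.56 against 2.75 and 2.92 with all libraries. With all libraries, DESeq2 called all 9 members over the 5 lines, but its share over all tested genes is not given beside that count.

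**Figure D5:**
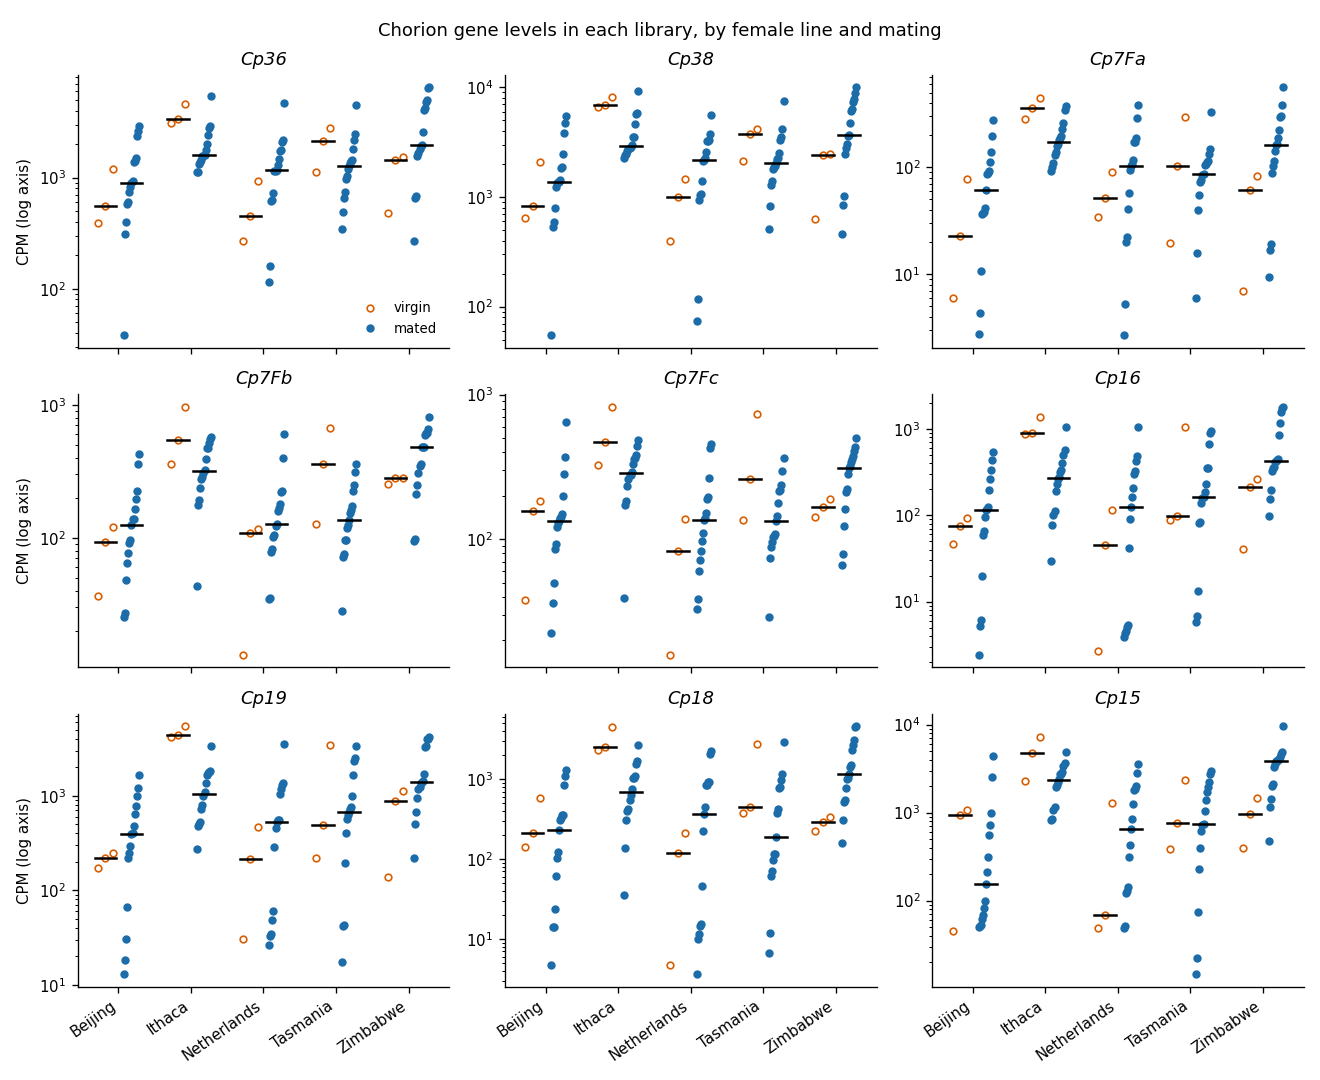
Level of each chorion gene in each library (CPM, log axis), by female line, with open orange circles for virgins and filled blue circles for mated females and black bars for medians. Ithaca virgins are high for all 9 genes, mated Zimbabwe females have the highest mated median for all but Cp7Fa (161 against 173 CPM in Ithaca), and single mated libraries of Beijing, Netherlands and Tasmania lie between 2.41 and 6.66 CPM for Cp16, Cp18 and Cp7Fa.

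Lines were also compared after mating. Averaged over the males, 8 of 9 members differed between female lines (all but Cp7Fa, adjusted p = 0.0704 by edgeR's quasi-likelihood test), beside 70.1% of all tested genes, so that line differences were common among all genes. Zimbabwe females had the highest median share of counts from chorion genes after mating (1.26%), followed by Ithaca (0.932%), Tasmania (0.627%), Netherlands (0.496%) and Beijing (0.392%), and the libraries of all 5 lines overlapped. This is an order of medians, and the direct test of female line by mating given above called no member.

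Cp15, which is made in the latest egg chambers, varied most between mated lines. Its lowest, median and highest levels were 475, 3828 and 9613 CPM in the 15 mated Zimbabwe libraries, 827, 2333 and 4948 CPM in Ithaca and 14.5, 737 and 2938 CPM in Tasmania. They were 48.4, 644 and 3602 CPM in Netherlands and 50.7, 153 and 4405 CPM in Beijing. The Beijing median was thus the lowest and the Zimbabwe median the highest, with overlap in every case. Female line took 37.6% of the sum of squares of log2 Cp15 over mated libraries, more than for any other member (15.2% to 32.7%), and differences between replicates took 47.4%. Over all tested genes the median was 23.4% for female line and 54.1% between replicates. Apart from Cp15, only Cp7Fb (32.7%) was above that median for female line, and the other members lay below it (15.2% to 23.1%).

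Cp18, also a late transcript, had lowest, median and highest levels of 159, 1161 and 4606 CPM in mated Zimbabwe libraries and 4.68, 234 and 1300 CPM in mated Beijing ones. Cp38 had 454, 3686 and 10012 CPM in mated Zimbabwe libraries and 54.5, 1368 and 5449 CPM in mated Beijing ones. Cp7Fb had 94.8, 479 and 815 CPM in Zimbabwe, 43.4, 317 and 575 CPM in Ithaca and 25.1, 124 and 425 CPM in Beijing. In each case the Zimbabwe median lay above that of the other lines given, and the ranges overlapped.

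Between Beijing and Zimbabwe mated females all 9 members were called lower in Beijing, where 17.5% of all tested genes were. The log2 difference was -2.85 ± 0.63 for Cp15 (adjusted p = 0.000175 by edgeR's quasi-likelihood test), -2.53 ± 0.71 for Cp18 (0.00301), -2.30 ± 0.67 for Cp16 (0.00407) and -2.16 ± 0.60 for Cp19 (0.00284). It was -1.65 ± 0.34 for Cp7Fb (6.09e-05), -1.46 ± 0.36 for Cp36 (0.000762), -1.41 ± 0.38 for Cp38 (0.00200), -1.24 ± 0.50 for Cp7Fa (0.0444) and -0.83 ± 0.34 for Cp7Fc (0.0486). Not all of these calls held under other settings. Without the mixed libraries Cp7Fc had a difference of -0.79 and was not called (adjusted p = 0.0812 by edgeR). Cp7Fa was not called in a fit that also held each library's slope on gene length (-1.12, adjusted p = 0.0621 by edgeR). With counts summed per female line and replicate number, Cp7Fa (-1.19, 0.198), Cp7Fc (-0.70, 0.349), Cp36 (-1.34, 0.0760) and Cp38 (-1.27, 0.0943) were not called. Without all libraries numbered 1, Cp7Fa, Cp7Fc, Cp36 and Cp38 were not called, and without all numbered 2, Cp7Fa and Cp7Fc. The genes on 3L thus differed by more than 2 log2 units and those on the X by less, and the difference between the clusters was not tested.

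Against Zimbabwe, 8 members were also called lower in Netherlands females (14.6% of all tested genes) and 5 in Tasmania females (15.6%), and against Ithaca 6 were called lower in Beijing females (22.4%). Cp7Fb and Cp7Fc were called higher in Ithaca than in Netherlands (1.19 ± 0.34 and 1.03 ± 0.35, with 19.1% of all tested genes) and than in Tasmania (1.18 ± 0.34 and 0.92 ± 0.35, with 20.0%). No member was called between Ithaca and Zimbabwe, Beijing and Netherlands, Beijing and Tasmania, or Netherlands and Tasmania. There the share of all tested genes called was 37.8% between Ithaca and Zimbabwe, 36.8% between Beijing and Netherlands, 34.2% between Beijing and Tasmania and 30.5% between Netherlands and Tasmania. In all there were 32 called differences in 10 pairs. Flies of a replicate came from separate bottles, and the labels do not say whether crosses of the same line and number shared a bottle. When counts were summed per female line and replicate number, so that each line had 3 values, 5 members (Cp7Fb, Cp15, Cp16, Cp18 and Cp19) were called over the lines and 7 differences in pairs. Without all libraries numbered 1, or all numbered 2, 5 members and 15 differences were called.

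Cp7Fb and Cp7Fc varied together, but in different proportion in different lines. Cp7Fb divided by Cp7Fc, in CPM, had a median of 1.5 in the 18 Zimbabwe libraries (1.24 to 2.01), 1.11 in Ithaca (0.805 to 1.69), 1.04 in Netherlands (0.743 to 1.73), 0.969 in Tasmania (0.743 to 1.35) and 0.811 in Beijing (0.597 to 1.37). The lowest Zimbabwe ratio was above the median of every other line, though the ranges overlapped. The ratio was picked after the values were seen and was not tested. Reads of all lines were mapped to the same reference, and the part that sequence differences between lines play in the ratio was not tested.

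No member was called for the line of the male. Averaged over female lines the count was 0 of 9 by edgeR's quasi-likelihood test (1 at an unadjusted p under 0.05, Cp36 with an adjusted p = 0.388, and 0 by DESeq2), and 0.00830% of all tested genes were called. Male line took 2.39% to 13.4% of the sum of squares of the members over mated libraries, the highest for Cp36, against a median of 4.84% over all tested genes. Within female lines 0 members were called for male line in any of the 5, where 0.0415% of all tested genes were called in Beijing, 7.99% in Ithaca, 11.2% in Netherlands, 0.208% in Tasmania and 0% in Zimbabwe. At an unadjusted p under 0.05 there were 2 members in Beijing and 2 in Netherlands, and DESeq2 called 0.

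A difference between female lines in the effect of the male was called for no member in edgeR's quasi-likelihood test (0 of 9 called and 0 at an unadjusted p under 0.05), beside 3.53% of all tested genes. DESeq2 called 6 of 9, but its share over all tested genes is not given, so that count is not read as a result about the members. Of the 24 testis and sperm genes 11 were called in the same test, and of the 15 seminal fluid genes 9. The testis and sperm sum was 1640 CPM in Ithaca x Zimbabwe replicate 1 and 8.74 CPM in replicate 3. It was 1550 CPM in Netherlands x Beijing replicate 2, against 5.55 and 5.86 CPM in replicates 1 and 3. In Ithaca x Ithaca it was 367 CPM in replicate 3, against 8.06 and 6.84 CPM in replicates 1 and 2. The part of such single libraries in these calls was not tested. Females mated to males of their own line had lower values of all 9 members than those mated to other males, by 0.29 to 0.68 on the log2 scale (Cp18, -0.68 ± 0.56, and Cp7Fc, -0.29 ± 0.27), and none was called (adjusted p = 1 for each, 0 at an unadjusted p under 0.05, 0 by DESeq2, and 0% of all tested genes).

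The machinery that copies and switches on the chorion genes was set beside them. Of 31 tested replication and amplification factors, 2 were called lower in mated females averaged over lines, where 1.47% of all tested genes were, namely Orc4 (-0.23 ± 0.06, adjusted p = 0.00725 by edgeR's quasi-likelihood test) and Orc6 (-0.21 ± 0.07, 0.0406), which encode subunits of the origin recognition complex, and 0 were called higher. Of 20 follicle cell regulators and ovulation genes, Timp, a metalloproteinase inhibitor, was called higher (0.19 ± 0.06, 0.0259) and Oamb, an octopamine receptor needed for ovulation, lower (-0.34 ± 0.11, 0.0493), beside 5.63% of all tested genes called in either direction. Counts this small are not read as a property of either list. None of the 18 other eggshell genes, 4 yolk genes or 19 female germline genes was called for mating by edgeR's quasi-likelihood test. Between mated lines 17 of the 31 replication factors, 12 of the 20 follicle cell genes, 18 of the 18 other eggshell genes, 4 of the 4 yolk genes and 16 of the 19 female germline genes were called, beside 70.1% of all tested genes. Between virgin lines the counts were 3, 1, 6, 2 and 7 in the same order, beside 27.5% of all tested genes.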

How the data were processed

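RNA of whole females was sequenced as single reads of 100 bases from libraries that do not keep strand, per the labels' protocols. The deposited table holds whole-number read counts per gene, which the authors made with FastQC, Trimmomatic, TopHat2 and HTSeq on build dm3, per the submitters' processing notes, which name no versions. Of 14522 rows, 8 had a number in place of a gene symbol and were left out, with 0.122% of all counts. Symbols were matched to a BDGP6 annotation for 14321 genes (98.7%), which gave names, order and exon lengths only.

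Genes were filtered with filterByExpr, scaled by TMM and tested with edgeR 4.0.16 (R 4.3.3), by the quasi-likelihood test with robust dispersion and 1 mean per group over all 89 libraries. P-values were adjusted by Benjamini and Hochberg over all 12045 tested genes, and a gene is called at an adjusted p under 0.05. DESeq2 1.42.0 was the other test. SEs were taken from the log2 change and its F statistic. Log2 CPM used a prior count of 2. Correlations and levels were computed in Python 3.11.15 (numpy 2.4.6, pandas 2.3.3, scipy 1.17.1). The fits were tested on simulated data.

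The members and gene lists were chosen with earlier results of these data known. The genes named are the 9 members, up to 3 called genes per list and direction, and the 10 other genes most like the members' mean. Genes outside the family that were closest to a single member are also named. Labels give replicates as separate bottles, and p-values measure the spread between such pools. Alternatives were another scaling, no filter, a replicate block, libraries left out, scaling without the members, and, added after the data were seen, the mixed libraries left out, a block for line and number, a gene length slope and summed counts.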

Additional observations from a re-analysis of the deposited data

How the results depend on the processing

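Every count of 0 called members, for mating, female line by mating, male line and same-line males, was also 0 under every alternative run, with 1 exception. DESeq2 called 6 members for female line by male line. The shares of all tested genes called are those of edgeR throughout. None is given for DESeq2, so its counts, also those of 0, are not read as a result about the members. For female lines among virgins (5 members, 10 pair differences) DESeq2 called 9 and 18, and leaving out replicates gave 0 to 6 and 0 to 10. The lowest values came without all libraries numbered 3, and 1 and 1 were called without Ithaca virgin replicate 3. Without the mixed libraries 3 members were called among virgins, and 8 differences. For mated females (8 members, 32 pair differences), leaving out replicates gave 5 to 8 and 15 to 32, and counts summed per female line and replicate number gave 5 and 7. The cause was not tested, beyond the fewer samples that the last of these leaves.

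The log2 change with mating reversed sign for Cp7Fb with the replicate block (0.01) and without libraries over the testis limit (0.02), for Cp15 (-0.05) and Cp18 (-0.01) without the latter, and for Cp15 (-0.18) and Cp18 (-0.15) without the mixed libraries. Leaving out replicates gave -0.12 to 0.12 for Cp7Fb, -0.18 to 0.11 for Cp7Fc, -0.53 to 0.85 for Cp15, -0.24 to 0.77 for Cp16, -0.65 to 0.47 for Cp18 and -0.25 to 0.58 for Cp19. Among single genes and settings, 864 values kept direction and side of the threshold, 66 lost the call, 10 gained it and 20 reversed.

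Replicate numbers are shared by the groups. Deviations of same-numbered libraries within a line correlated from -0.91 to 0.83, so that not every pair passed 0.1 and the numbers were not taken to pair libraries. The median was nevertheless higher for the same number (0.06 to 0.22) than for different numbers (-0.13 to -0.02) in all 5 lines, a hint from the data and not the design, with 33 of 45 pairs over 0.1 in Tasmania and 32 of 45 in Zimbabwe. To that extent libraries of a line and number may not be independent. The summed counts above allow for this only between female lines among mated females. The permutation tests of pairs of members made no such allowance, so their p-values may be too small. A fit with the number as a block called 7 members and 14 pair differences among virgins, and 8 and 33 among mated females. Cp7Fa between mated Beijing and Zimbabwe was not called with the block (adjusted p = 0.0637 by edgeR) or with the gene length slope (0.0621). Depth limited little, since the lowest member value rests on 20 reads.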

Other observations

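Within the Netherlands line, 5 of the 6 libraries numbered 2 held between 3.6 and 14.5 CPM of Cp18, while Netherlands x Ithaca replicate 2, the library with 51.7% of RNA estimated from another line, held 2255 CPM. Netherlands x Beijing replicate 2 was among the low 5, at 14.5 CPM, and was also mixed. It had 28.8% of RNA estimated from another line and a testis and sperm sum of 1550 CPM. The median of the same 6 libraries was 4.66 CPM for Cp16 and 33.3 CPM for Cp19. Within the Zimbabwe line, libraries numbered 3 held 270, 668 and 1986 CPM of Cp36 (lowest, median and highest), and those numbered 1 held 1519, 4180 and 6525 CPM. Cp7Fa stood at 6.96, 18 and 164 CPM in the former. These libraries were picked after their values were seen and were not tested.

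Of the 18 other eggshell genes, Fcp3C, a follicle cell protein gene, had a within-group SD of 1.4 on the log2 scale and an r of -0.14 with the chorion mean over 89 libraries. Its r was 0.3 with the Cp7Fb and Cp7Fc set and -0.25 with the Cp16, Cp18 and Cp19 set. Pxt, a peroxidase gene needed in the follicle, had an SD of 0.2 and an r of -0.13.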
